A study of Rattus norvegicus with 4 samples.

Results

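MicroRNA-21 (miR-21) is a small RNA that many tissues make more of after injury, and 9 of its published target genes were followed here through the recovery of rat muscle from ischemia. They were Pdcd4, Spry1, Spry2, Reck, Btg2, Rhob, Lrrfip1, Tgfbi and Anp32a. Members were the probes whose gene name in the scanner files was 1 of these genes, with older names read from the probe descriptions. The rule found 12 probes, 1 spot each, among the 41012 gene probes of the array: Spry1, Reck and Tgfbi had a pair of probes each and the other genes 1.

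The tissue was the gracilis, a strap-like muscle of the inner thigh, of male Sprague-Dawley rats whose age was not given in the sources used here. Each injured muscle had undergone 4 h of ischemia and then 1, 3, 7 or 14 days of reperfusion, and each control muscle a sham operation. Each day was 1 Agilent array with 2 colours, the injured muscle in Cy5 and the sham muscle in Cy3, and the dyes were never swapped. A day thus rests on 1 injured and 1 sham sample with no replicate, precision is limited by the number of arrays, and where a probe takes up the dyes unequally this cannot be told apart from a difference between the muscles. The labels do not say whether the 4 sham channels held the same RNA, and no unoperated muscle was used here. Day 14 was scanned in a session of its own, so that day and session cannot be told apart.

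A microRNA guides a silencing complex to matching sites, mostly in the 3′ untranslated ends of messenger RNAs, which lowers the protein made and often the messenger too. The seed, bases 2 to 8 of the mature strand, makes most of the contact. The targets are known from other systems as brakes on growth and spread: Pdcd4 restrains translation, the Sproutys restrain growth factor signalling, Reck restrains matrix proteases, and Btg2 and RhoB restrain division. miR-21 itself was not measured on these arrays, so the values below are levels of its targets' messengers and nothing more.

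The microRNA that links these genes is shown first, with the seed in capitals in the mature strand and the mature strand in capitals in the hairpin. Both are from RefSeq, on the minus strand of GRCr8, the mature strand at chr10:71902653-71902674 and the hairpin at chr10:71902600-71902691. The hairpin lies 531 bases past the annotated end of Vmp1, on the same strand. Of 693 mature rat microRNAs in the table, 1, miR-21-5p, carries this seed.
rno-miR-21-5p: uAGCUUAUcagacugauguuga
Mir21 hairpin: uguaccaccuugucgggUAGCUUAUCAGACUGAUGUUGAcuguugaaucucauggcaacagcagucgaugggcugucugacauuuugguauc

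The arrays read each target through a 60-base probe, and 5 probes from coding sequence are printed to show which stretch of the messenger was measured. On rn4, the build of the files, they lie at chr1:260199235-260199981 (Pdcd4, plus strand), chr2:124216505-124216564 (the dimmer probe of Spry1, plus), chr15:90009823-90009882 (Spry2, minus), chr17:13919514-13919573 (the dimmer probe of Tgfbi, minus) and chr8:66517372-66519301 (Anp32a, plus). The Pdcd4 probe covers 747 genomic bases and the Anp32a probe 1930, so each crosses a splice junction.
Pdcd4: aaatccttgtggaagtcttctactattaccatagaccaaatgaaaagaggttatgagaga
Spry1: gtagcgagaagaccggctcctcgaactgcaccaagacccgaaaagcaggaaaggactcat
Spry2: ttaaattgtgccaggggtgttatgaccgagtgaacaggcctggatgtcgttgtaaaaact
Tgfbi: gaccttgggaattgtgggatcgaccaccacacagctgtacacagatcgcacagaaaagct
Anp32a: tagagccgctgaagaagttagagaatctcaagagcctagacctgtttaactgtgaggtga
The other 7 probes lie at chr2:124217774-124217833 (the brighter probe of Spry1, plus), chr5:60407087-60407146 and chr5:60407194-60407253 (Reck, plus), chr13:47027022-47027081 (Btg2, minus), chr6:32052791-32052849 (Rhob, minus), chr9:90346805-90346864 (Lrrfip1, plus) and chr17:13905255-13905314 (the brighter probe of Tgfbi, minus). The letters that pair with the seed, ATAAGCT, occurred in 0 of the 12 member probes and in 147 of 41012 gene probes (0.358%), counted on the messenger's strand. A probe therefore shows how much of the messenger there was, not the site.

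Levels are log2 normalized intensities of each channel, and a ratio is the log2 of injured over sham on 1 array, by normexp background correction and loess. Ratios are given for each day, and a ratio of at least 2-fold (1 on the log2 scale) is called higher or lower, a threshold of size with no test behind it. The injured channel was well above background at 64.4% to 68.7% of gene probes and the sham channel at 34.7% to 47.3%. Probes measured in at least 1 channel numbered 26610, 28245, 27057 and 27418 on days 1, 3, 7 and 14, and all 12 member probes were among them each day, none saturated. The SD of the log2 ratio between repeat spots of 40 probes printed 10 times was 0.056, 0.055, 0.072 and 0.035 on the 4 days, a measure of spot noise that says nothing of how animals vary. Sham channels of different days correlated at r from 0.966 to 0.994 across probes, which are not independent replicates. All 10 myofibre markers, among them Ckm and Acta1, were well above background in both channels on every day, as the tissue label requires.

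Loess removes a trend of the ratio with brightness, and the choice matters for direction. With median centring in its place, the median of all measured probes moved from 0.023, 0.026, 0.034 and 0.035 to 0.366, 0.275, 0.257 and 0.245 on days 1, 3, 7 and 14. Of the 48 member values, 17 then had the opposite sign, and 12 still did after that shift of the median was taken off. Values that turn are named beside each gene.

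By loess the targets did not move as a group. Their median ratio over the 12 probes was 0.27, 0.024, 0.032 and 0.084 on days 1, 3, 7 and 14, beside 0.023, 0.026, 0.034 and 0.035 over all measured probes, and 7, 6, 6 and 8 of the 12 lay above 0. With median centring the members' median was 1.01, 0.67, 0.46 and 0.56, beside 0.366, 0.275, 0.257 and 0.245 over all probes. By the brightest probe, 8 of the 9 targets were then at least 2-fold higher on at least 1 day and 1 lower. Of all genes 30.7% and 2.22% were. At the 2-fold size, Lrrfip1 was higher on day 1, Rhob on days 3 and 7, and Tgfbi (by 1 of its 2 probes) and Anp32a were lower on day 14. By loess, Pdcd4, Spry1, Spry2, Reck and Btg2 stayed within 2-fold of sham on every day. With median centring only Pdcd4 of these 5 did, by the deposited ratios Reck and the dimmer probe of Spry1 passed 2-fold, and against the averaged sham levels Btg2 did. In whole muscle, fewer cells of a type and less RNA per cell cannot be told apart. All 10 myofibre markers were at least 2-fold lower than sham on days 1 and 3, with medians of -3.22 and -4.27 (-1.64 and -3.07 with median centring). Of all genes 4.81% and 3.84% were lower on those days. The summed level of these markers in injured muscle was 15.95, 15.02, 17.82 and 18.54 on days 1, 3, 7 and 14, against 18.21 to 19.32 in sham. Its part in the ratios below was not tested. At least 1 channel was saturated at Myh7 and Tnnc2 on day 3, which can cap such a sum.

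Set against all probes, those counts were 1 of 12 higher on day 1 (background 1.17%), 1 of 12 higher on day 3 (2.32%), 1 of 12 higher on day 7 (3.12%) and 2 of 12 lower on day 14 (1.58%). In the other direction the members gave 0 of 12 lower on day 1 (4.78%), on day 3 (3.89%) and on day 7 (1.25%), and 0 of 12 higher on day 14 (2.99%). Over the time course, 2 of 12 were higher on at least 1 day, where 6.03% of all probes were, and 2 of 12 were lower, where 6.17% were. Each count is 0 to 2 probes of 12, and no test stands behind it.

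**Figure D1:**
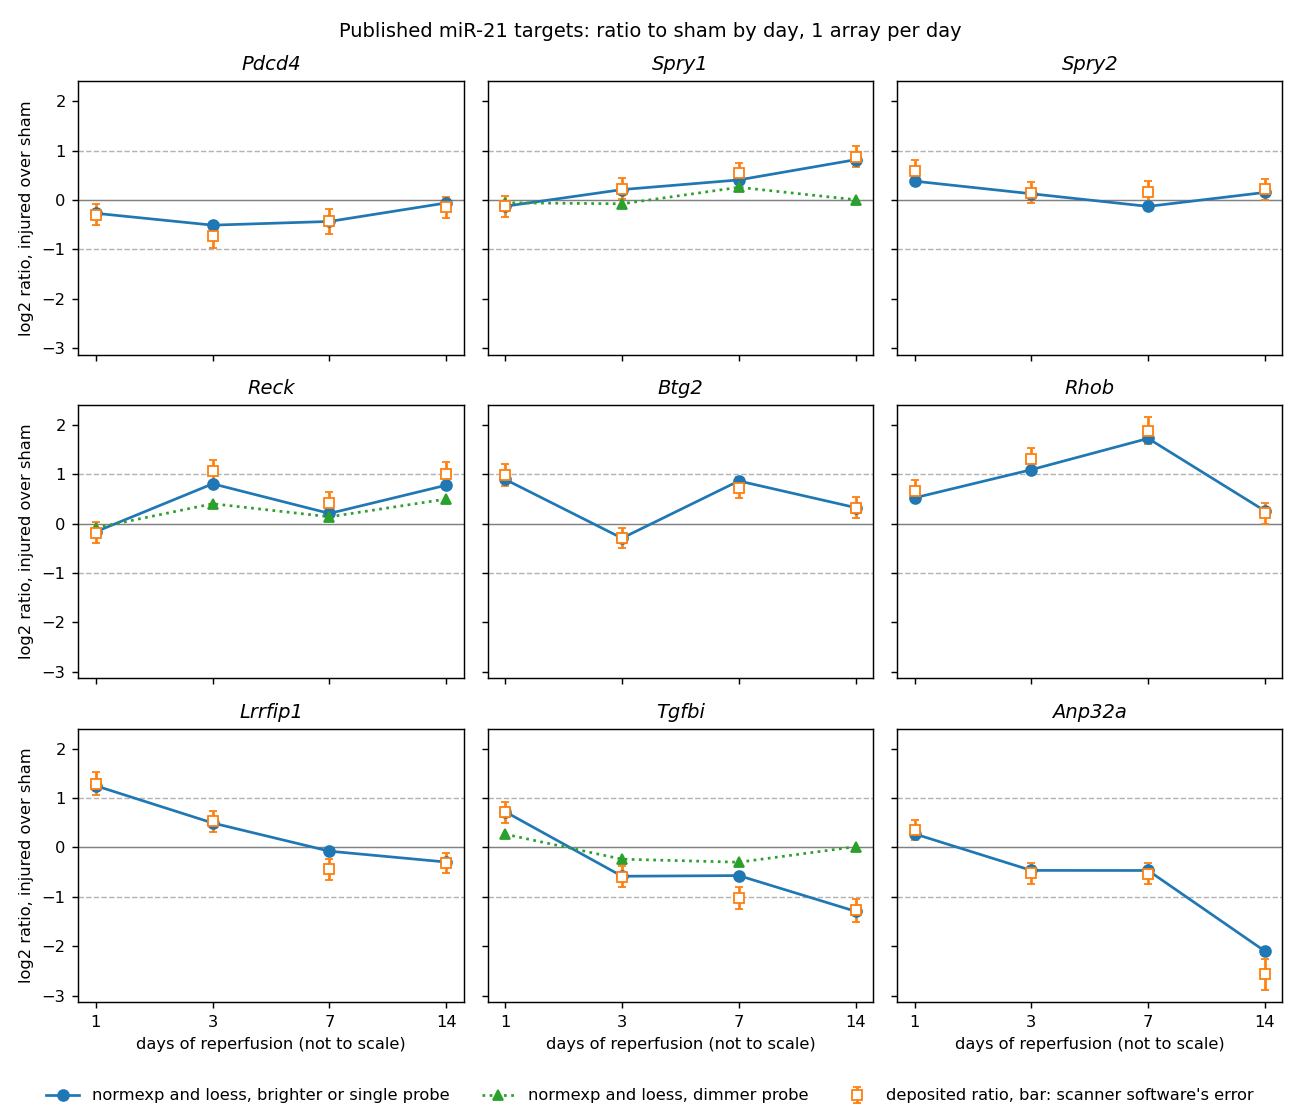
Log2 ratio of injured to sham muscle (vertical axis) for each target on days 1, 3, 7 and 14 of reperfusion, 1 array per day. Filled points are ratios by normexp and loess for the brighter or single probe (circles) and the dimmer probe (triangles), squares are the deposited ratios with the scanner software's error of the spot, and dashed lines mark 2-fold. Rhob peaks on day 7 at 1.73, Lrrfip1 starts at 1.25, and Anp32a ends at -2.10, while Pdcd4 lies between -0.51 and -0.06. With median centring Pdcd4 is above 0 on each day, but below the median of all probes on days 3 and 7.

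Pdcd4 is the target most often used as a readout of miR-21, an inhibitor of the helicase eIF4A that slows the translation of structured messengers. Its injured level was 7.90, 7.55, 7.30 and 7.95 on days 1, 3, 7 and 14, and its sham level 8.18, 8.07, 7.74 and 8.01. The injured level was the lower of the pair on each array, though on days 1 and 14 it lay inside the range of the 4 sham levels. The ratios were -0.27, -0.51, -0.44 and -0.06, all below 0, whereas median centring put them at 0.55, 0.13, 0.004 and 0.49. Less the median of all probes under that centring, they were 0.184, -0.143, -0.253 and 0.245. On days 3 and 7 Pdcd4 thus stayed below the median probe either way. The deposited ratios had the same sign as the loess ratios on all 4 days, at -0.30, -0.74, -0.43 and -0.15, each with an error of 0.21 to 0.25. In limma's test of the mean over the 4 arrays, Pdcd4 averaged -0.32 (SE 0.098), with an adjusted p of 0.184 and 4 of 4 arrays below 0, so the offset did not pass.

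The list of Pdcd4's partners in translation gave 0 genes higher and 4 lower of 8 measured, on at least 1 day, where 6.31% of all genes were higher and 6.15% lower. The genes were the helicases Eif4a1 and Eif4a2 and the scaffolds Eif4g1 and Eif4g2. With median centring 0 of the 8 were lower and 4 higher, where 2.22% of all genes were lower and 30.7% higher. The list medians were then 0.76, 0.63, 0.47 and 0.54 on days 1, 3, 7 and 14, beside 0.366, 0.275, 0.257 and 0.245 over all probes. The direction of the list thus turns with the scaling, which moves the median of all probes upward too. Eif4a2 was at -1.66, -1.92, -0.30 and 0.29 on days 1, 3, 7 and 14. Eif4a1 took another course, 0.34 and 0.54 before -1.04 and -1.18, and all 5 of its probes lay below 0 on days 7 and 14, while on day 3 a pair of them was at -0.34 and -0.48. Eif4g1 had its lowest value on day 14, at -1.17, and Eif4g2 on day 3, at -1.13, although 2 of the other 4 probes of Eif4g2 lay slightly above 0 that day.

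Sprouty proteins are made in response to growth factor signals and damp the Ras and ERK cascade in return. By the brighter probe of Spry1, the injured level was 8.13, 8.68, 9.07 and 9.19 on days 1, 3, 7 and 14, against sham levels of 8.26, 8.47, 8.66 and 8.37. On days 3, 7 and 14 the injured level was above all 4 sham levels, by as little as 0.019 on day 3. The ratios were -0.13, 0.21, 0.41 and 0.82 (the first of them 0.74 with median centring), so the last was 1.76-fold, below the size called higher. With median centring days 7 and 14 passed that size, at 1.03 and 1.44. Against all probes, that last value stood at percentile 95.6.

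The dimmer probe of Spry1 did not follow, at -0.058, -0.078, 0.26 and 0.004. Its sham channel was not well above background on days 1, 3 and 7, and the bound there was at least 1.14-fold higher on day 7. A bound is the injured level over the sham reading or, if that is higher, over the dimmest sham signal of any probe well above background. The deposited ratio of this probe on day 7 was 1.77 with an error of 0.80, larger than any deposited ratio of the brighter probe.

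Spry2 is a paralog of Spry1. Its injured level was 8.02, 7.84, 7.79 and 7.65, and its sham level 7.64, 7.72, 7.92 and 7.50. Only on day 1 was the injured level above all 4 sham levels. The ratios were 0.38, 0.13, -0.13 and 0.15, and the day 7 value was 0.16 by the deposited ratio and 0.37 with median centring, which also put the day 1 value past 2-fold, at 1.14. Of 18 measured genes of Sprouty and ERK feedback, 2 were higher and 1 lower on at least 1 day, against 6.31% and 6.15% of all genes. By the deposited ratios 8 and 4 were, against 34.3% and 18.2% of all genes. With median centring 6 and 0 were, against 30.7% and 2.22%. Dusp6, a phosphatase induced by ERK and specific for it, was at 1.26, 0.84, 0.43 and -0.85, the growth factor receptor Egfr was at 1.12 on day 3 by its brighter probe and 0.26 by the other, and Dusp5, a nuclear ERK phosphatase, was at -1.14 on day 14 (-0.50 with median centring).

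Reck is a membrane-anchored inhibitor of matrix metalloproteinases. By its brighter probe, the injured level was 7.53, 8.70, 8.29 and 8.55 on days 1, 3, 7 and 14, and the sham level 7.70, 7.89, 8.08 and 7.77. The injured level was above all 4 sham levels on days 3, 7 and 14 and below them on day 1. The ratios were -0.16, 0.81, 0.21 and 0.78 (the first 0.52 with median centring). The dimmer probe gave smaller values of the same sign, -0.084, 0.40, 0.14 and 0.50. With median centring the first value of the dimmer probe was 0.30, or -0.061 less the median of all probes. The brighter probe reached 1.75-fold on day 3 and 1.72-fold on day 14, and its deposited ratios on those days, 1.07 and 1.01, passed 2-fold, as did 1.55 and 1.35 with median centring.

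Among the proteases, Mmp2 and Mmp14 passed 2-fold, while Mmp9 reached 0.89 on day 1 and Adam17 stayed between -0.47 and 0.11. Of 6 measured genes of Reck, its proteases and their inhibitors, other than Reck, 2 were higher and 2 lower on at least 1 day. With median centring 5 and 1 were. Of all genes 6.31% and 6.15% were, and 30.7% and 2.22% with median centring. Mmp14, a membrane-bound metalloproteinase that activates proMMP2, was at -1.70 on day 1 and 3.00 on day 7, and so counts in both directions. Mmp2, a gelatinase, was at -0.60, 0.77, 2.75 and 2.19 by its brighter probe. Timp1, a soluble inhibitor, was at 0.003, -0.42, -1.27 and -1.90. The summed level of 7 fibroblast markers moved over the same days, at 14.14, 16.60, 17.13 and 17.02 in injured muscle against 14.74 to 15.84 in sham, with 6 of 7 markers measured on day 1 and 7 of 7 later, and its part in these ratios was not tested. At least 1 channel was saturated at Col3a1 on day 7 and at Col1a1 on day 14, which can cap such a sum.

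Btg2 belongs to the antiproliferative BTG and TOB family, which binds the deadenylase that shortens messenger tails. Its injured level was 10.85, 9.30, 10.67 and 10.03 on days 1, 3, 7 and 14, and its sham level 9.96, 9.60, 9.80 and 9.70. It was above all 4 sham levels on days 1, 7 and 14 and below them on day 3. The ratios were 0.90, -0.29, 0.87 and 0.33, and the day 3 value was 0.58 with median centring and -0.29 by the deposited ratio. Btg2 was thus 1.86-fold and 1.82-fold above sham on days 1 and 7, short of 2-fold on each by loess. The day 1 value passed 2-fold against the averaged sham levels (1.09), and with median centring days 1, 7 and 14 did (2.09, 1.59 and 1.01). Its ratio nevertheless fell by 1.19 from day 1 to day 3 and was 1.16 higher on day 7 than on day 3, so it passed 2-fold in both of those steps.

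The dip of Btg2 fell on the day when all 5 markers of dividing cells (Mki67, Top2a, Ccnb1, Cdk1 and Plk1) were at least 2-fold higher than sham. Of all genes 2.48% were. The summed level of these markers was 13.81 in injured muscle on day 3, against 10.63 to 11.83 on the other days and 11.69 to 11.99 in sham. Its part in the Btg2 values was not tested. Of 9 measured genes of the BTG and TOB family, the deadenylase and 2 cell cycle genes, 1 was higher and 2 lower on at least 1 day. With median centring 6 were higher and 0 lower. The shares of all genes were 6.31% and 6.15%, and 30.7% and 2.22% with median centring. Ccnd1, cyclin D1, was at 1.503, 1.766, 0.666 and -0.050. Cdkn1a, the cell cycle inhibitor p21, was at -1.41 on day 1 by its brighter probe (-0.094 with median centring) and -0.54 by the other. Tob1 was at -1.05 on day 3 (-0.57 with median centring).

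Rhob encodes a short-lived small GTPase of endosomes, an immediate early gene. Its injured level was 9.31, 9.53, 10.10 and 8.94 on days 1, 3, 7 and 14, and its sham level 8.79, 8.44, 8.37 and 8.68. Each injured level was above all 4 sham levels, with the widest margin on day 7, when the injured level exceeded the highest sham level by 1.31. The ratios were 0.52, 1.09, 1.73 and 0.26. Rhob was 2.13-fold above sham on day 3 and 3.31-fold on day 7, at percentiles 98.2 and 98.9 of all probes. With the 4 sham levels averaged as the control, the day 3 value was 0.96, just under 2-fold, and the day 7 value 1.53. With median centring the day 1 value passed 2-fold as well, at 1.55.

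Rhob was the target with the highest mean over the 4 arrays, 0.90 (SE 0.264), with an adjusted p of 0.175 by limma, so this offset did not pass either. It was above sham on 4 of 4 arrays. The summed level of 6 endothelial markers was highest on day 7 too, at 13.78 against 12.57 to 12.94 on the other days and 11.80 to 12.22 in sham, with 1 of the 6 at least 2-fold higher, and its part in the Rhob values was not tested. The summed level of 8 macrophage markers was also highest on day 7, at 15.82 against 14.47 to 15.12 on the other days and 13.78 to 14.14 in sham, with 5 of the 8 higher and 2 lower that day, and its part was not tested either. Of all genes 3.13% were higher and 1.22% lower on day 7. On at least 1 day 5 macrophage markers were higher and 3 lower, or 7 and 2 with median centring. Of all genes 6.31% and 6.15% were, or 30.7% and 2.22% with median centring.

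The 250 bases before the starts of Btg2 (chr13:48087691-48087940, minus strand) and Rhob (chr6:37085205-37085454, minus strand) are printed because these were the targets above sham on days 1, 7 and 14 under all 5 ways of forming the ratio. They are from RefSeq, GRCr8, with capitals for TGACGTCA, the cyclic AMP response element, and for CCAAT or its complement ATTGG.
Btg2: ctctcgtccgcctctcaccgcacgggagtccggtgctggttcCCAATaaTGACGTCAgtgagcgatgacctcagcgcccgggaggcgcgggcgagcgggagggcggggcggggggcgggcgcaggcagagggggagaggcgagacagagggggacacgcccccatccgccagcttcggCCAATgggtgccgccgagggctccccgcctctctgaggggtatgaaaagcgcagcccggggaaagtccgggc
Rhob: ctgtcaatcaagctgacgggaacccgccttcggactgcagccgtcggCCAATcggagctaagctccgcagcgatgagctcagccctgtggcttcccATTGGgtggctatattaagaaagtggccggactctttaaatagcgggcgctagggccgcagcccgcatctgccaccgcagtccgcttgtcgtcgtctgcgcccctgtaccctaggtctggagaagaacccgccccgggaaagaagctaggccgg
TGACGTCA, searched on both strands, was found in 1.59% of 33469 promoters of that length and in 1 of the 10 entries of the targets, that of Btg2, 201 bases before its start. CCAAT was found in 34% of promoters and in 5 of the 10 entries (Anp32a, Btg2, Pdcd4, Reck and Rhob). The AP-1 letters TGAGTCA or TGACTCA, which AP-1 proteins such as Fos and Jun bind, were in 4.05% of promoters and in 0 of the 10 entries. A match is a description of letters and shows no binding.

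Lrrfip1 encodes a protein that binds nucleic acids and represses some promoters. Its injured level was 11.95, 11.08, 10.54 and 10.40 on days 1, 3, 7 and 14, while its sham level was 10.70, 10.58, 10.61 and 10.70. The injured level was above all 4 sham levels on days 1 and 3 and below them on days 7 and 14. The ratios were 1.25, 0.50, -0.075 and -0.29, stepping down at each day, and with median centring the last pair lay above 0, at 0.67 and 0.42. Median centring also put the day 3 value past 2-fold, at 1.47. The day 1 value was 2.38-fold, at percentile 99.4 of all probes, and it passed 2-fold by the deposited ratio (1.29), against the averaged sham levels (1.30) and with median centring (2.53). Of its 6 measured partners, 1 was higher and 0 lower on at least 1 day (3 and 0 with median centring): the receptor Tlr4, at 1.16 on day 1. Among all genes 6.31% were higher and 6.15% lower, and 30.7% and 2.22% with median centring.

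Day 1 was also the day of highest neutrophil markers. The summed level of the 5 measured of 6 markers was 13.41, 10.96, 9.74 and 8.81 in injured muscle on days 1, 3, 7 and 14 and 10.74 to 11.25 in sham. On day 1, 2 of the 5 were higher and 0 lower, and on days 7 and 14, 0 were higher and 2 lower. Of all genes 1.25% were higher and 4.81% lower on day 1, 3.13% and 1.22% on day 7, and 3.16% and 1.56% on day 14. The ratios of Spry2, Btg2, Lrrfip1, Tgfbi and Anp32a were also highest on day 1, and the part of the neutrophil markers in them was not tested.

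Tgfbi encodes a secreted matrix protein that binds collagen and integrins and is induced by transforming growth factor beta. By its brighter probe, the injured level was 13.54, 12.15, 11.83 and 11.31 on days 1, 3, 7 and 14, and the sham level 12.82, 12.73, 12.40 and 12.60. The injured level was above all 4 sham levels on day 1 and below them on each later day. The ratios were 0.72, -0.58, -0.57 and -1.29, of which the middle pair was above 0 with median centring (0.49 and 0.26). Median centring also put the day 1 value past 2-fold, at 2.18, and the deposited ratio of day 7 passed 2-fold lower, at -1.02. The day 14 value was 2.45-fold lower, at percentile 0.667 of all probes, but -0.51 with median centring. From day 1 to day 14 the injured level fell by 2.24.

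The dimmer probe of Tgfbi, printed above, gave 0.27, -0.24, -0.30 and 0.015, the middle pair being 0.18 and 0.021 with median centring. Less the median of all probes, that pair was -0.092 and -0.236. By loess the dimmer probe shared the signs of the brighter probe on days 1, 3 and 7. It was at sham on day 14, when the brighter probe was lowest. The probes lie far apart in the messenger, starting at positions 378 and 2290 of the transcript in the files. Tgfbi is thus called lower on day 14 by 1 of 2 probes only. Of 11 measured inducers, receptors and the paralog of Tgfbi, 2 were higher and 2 lower on at least 1 day (5 and 0 with median centring). Of all genes 6.31% and 6.15% were (30.7% and 2.22% with median centring). The paralog of Tgfbi, Postn or periostin, took the opposite course, at -1.19, -0.62, 2.57 and 3.24, and Tgfb3 was at -1.75, -1.16, 0.48 and 0.74. Itgav, an integrin chain, was at 1.21 on day 3 by its brighter probe and 0.080 by the other.

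Anp32a encodes an acidic nuclear protein with leucine-rich repeats that inhibits the phosphatase PP2A. Its injured level was 10.26, 8.96, 9.23 and 7.74 on days 1, 3, 7 and 14, and its sham level 9.98, 9.43, 9.70 and 9.84. The injured level was above all 4 sham levels on day 1 and below them on each later day. The ratios were 0.28, -0.46, -0.47 and -2.10, and with median centring the middle pair was above 0 (0.39 and 0.21). Less the median of all probes, that pair was 0.115 and -0.047. Median centring also put the day 1 value past 2-fold, at 1.43. On day 14 Anp32a was 4.29-fold lower than sham, at percentile 0.164 of all probes, and it stayed past 2-fold by the deposited ratio (-2.56, error 0.31), against the averaged sham levels (-1.99) and with median centring (-1.47). Of 6 measured family members and partners, among them Anp32b and Anp32e, 0 were higher and 0 lower on any day (0 and 2 by the deposited ratios, 3 and 0 with median centring). Of all genes 6.31% and 6.15% were (34.3% and 18.2% by the deposited ratios, 30.7% and 2.22% with median centring). On day 14 the 6 lay between -0.75 and -0.25, with a median of -0.46 that became 0.12 with median centring. Anp32a was read by 1 probe and 1 spot, and no other probe of the gene was there to set beside it.

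**Figure D2:**
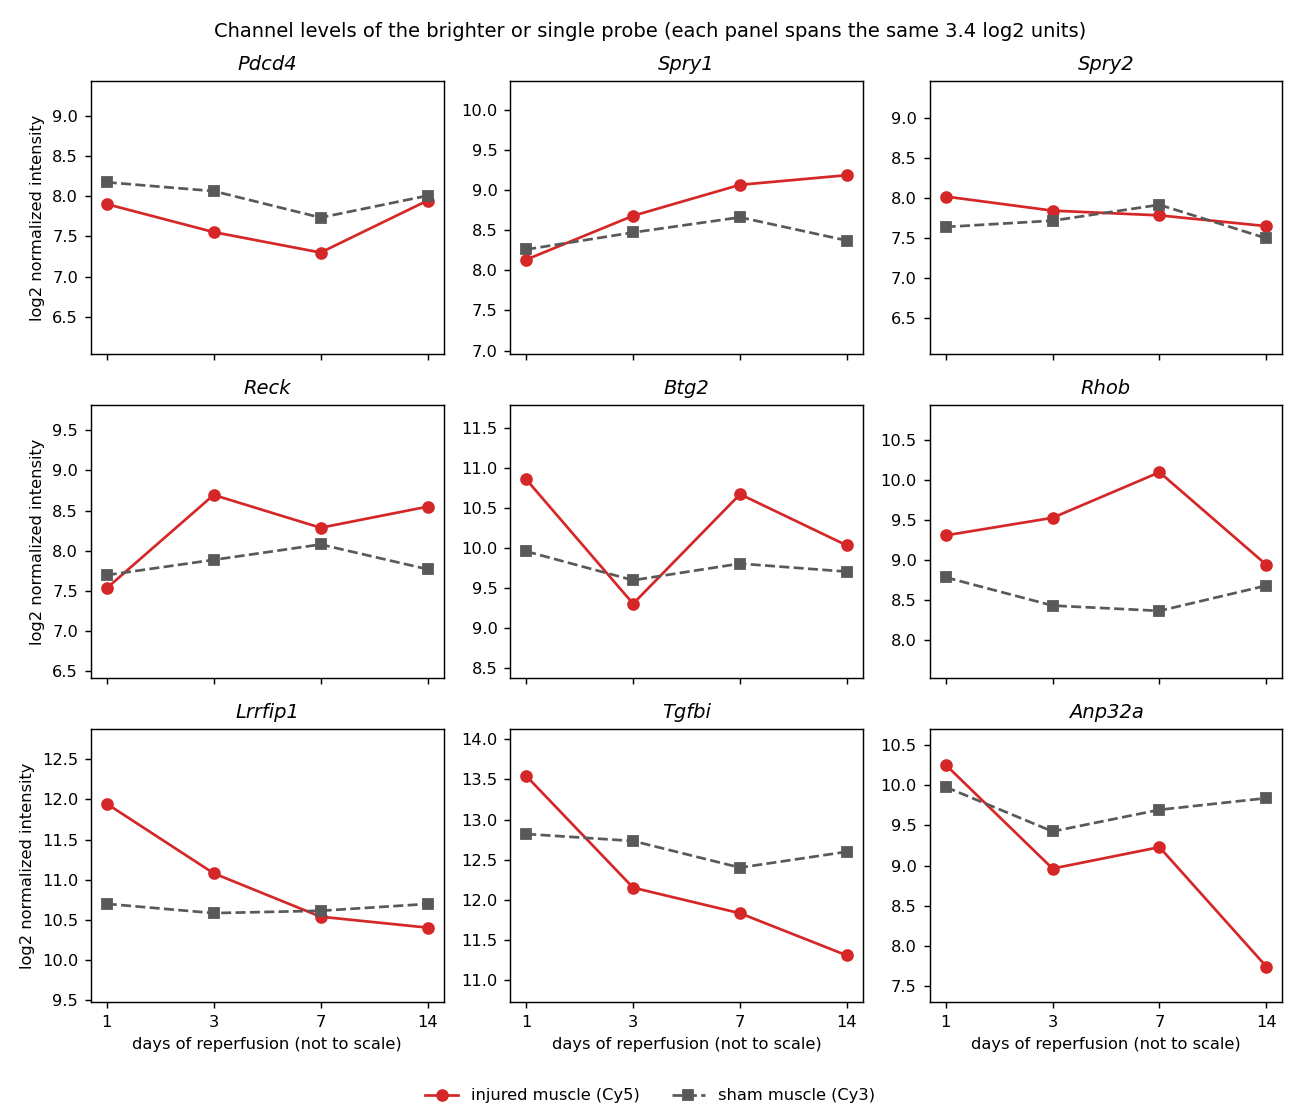
Log2 normalized intensity (vertical axis) of the injured channel (circles) and the sham channel (squares) by day of reperfusion, for the brighter or single probe of each target, 1 sample per point. Each sham line stays within a range of 0.55, whereas from day 1 to day 14 the injured line falls by 2.24 in the panel of Tgfbi and by 2.52 in that of Anp32a.

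Movement over time was larger for some targets than for most probes. The ratio of 5 of the 12 probes ranged over at least 1 on the log2 scale between days, as 19.7% of the 23648 probes measured on all 4 days did. They were the probes of Anp32a (a range of 2.38, or 5.19-fold), Tgfbi (the brighter probe, 2.02), Lrrfip1 (1.54), Rhob (1.47) and Btg2 (1.19). The other 7 ranged from 0.33 to 0.97. Sham levels of the same 12 probes ranged over 0.066 to 0.55, so in these 5 the injured channel carried most of the movement. Between consecutive days, the ratio differed at least 2-fold for 2 of 12 from day 1 to day 3 (background 4.61%), for 1 of 12 from day 3 to day 7 (6.93%) and for 2 of 12 from day 7 to day 14 (2.94%). The last pair was Rhob, which fell by 1.47, and Anp32a, which fell by 1.63.

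**Figure D3:**
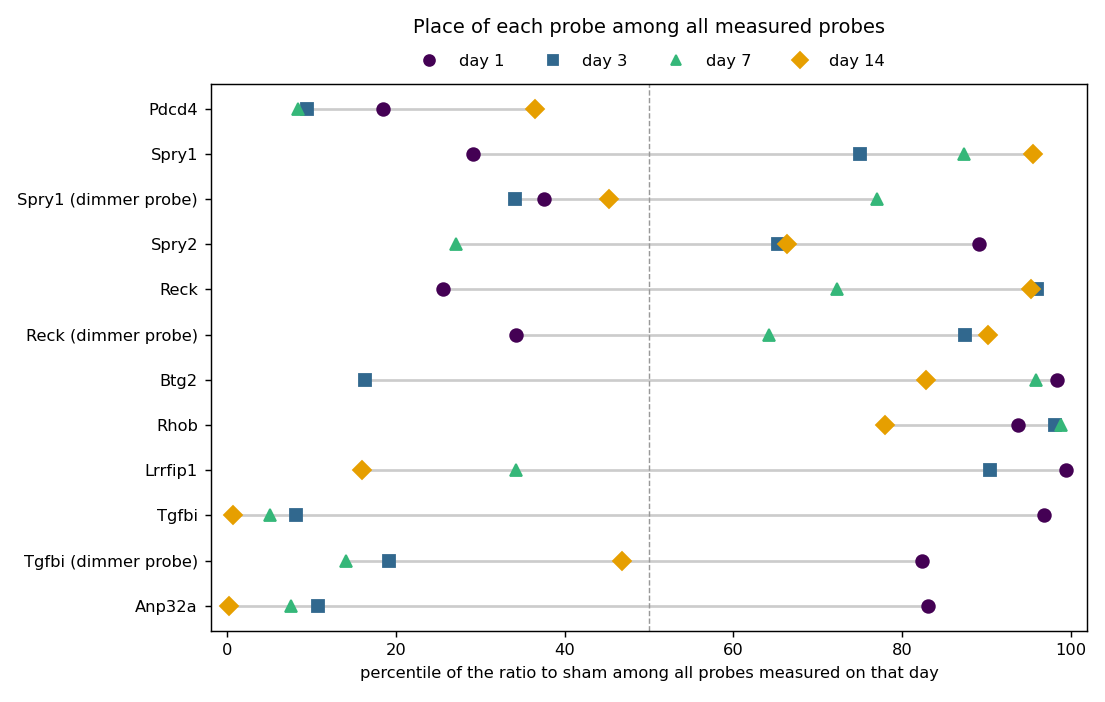
Percentile of each target probe's ratio among all probes measured on the same day (horizontal axis, 0 lowest, 100 highest), with 1 marker per day. Lrrfip1, Btg2 and the brighter probe of Tgfbi stand above 96 on day 1, and Rhob stands above 98 on days 3 and 7. Anp32a and the brighter probe of Tgfbi stand below 1 on day 14. The dimmer probe of Tgfbi stands at 82.4 on day 1 and 46.8 on day 14.

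Injured levels were also set against the sham levels of all 4 arrays. The injured level lay above all 4 sham levels for 7, 5, 6 and 7 of the 12 probes on days 1, 3, 7 and 14, where 34.2%, 34%, 39.2% and 30.8% of all probes did. It lay below all 4 for 4, 6, 5 and 3 of the 12, where 27.4%, 25.7%, 24.4% and 28.6% did. This rule was added after the values were seen. The deposited p-values of single spots come from the scanner software's error model and not from replicates. At a deposited p under 0.01, 5, 3, 2 and 3 member probes were higher (backgrounds 12.9%, 12.9%, 13% and 15.2%). On the same days 0, 2, 1 and 2 were lower (12.9%, 11.7%, 10.7% and 13.4%). These were counted from the authors' deposited scanner output of each spot, over the probes measured each day.

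Whether any target kept an offset from sham over all 4 days was asked of the mean ratio over the 4 arrays. By limma with Benjamini-Hochberg adjustment over 23648 probes, 0 of 12 member probes were higher (background 0.0211%) and 0 of 12 lower (0.182%). At an unadjusted p under 0.05 by limma there were 2 of the 12 members, Pdcd4 and Rhob, described above. As 5165 of all 23648 probes were also under it, this does not single them out. With an intensity trend in the variance 0 of 12 members passed the adjusted threshold. Of all probes, 0.309% then passed as higher and 0.457% as lower. These are 4 different days, so a gene that crosses sham is not what this test can find. By loess every target but Pdcd4 and Rhob crossed it.

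**Figure D4:**
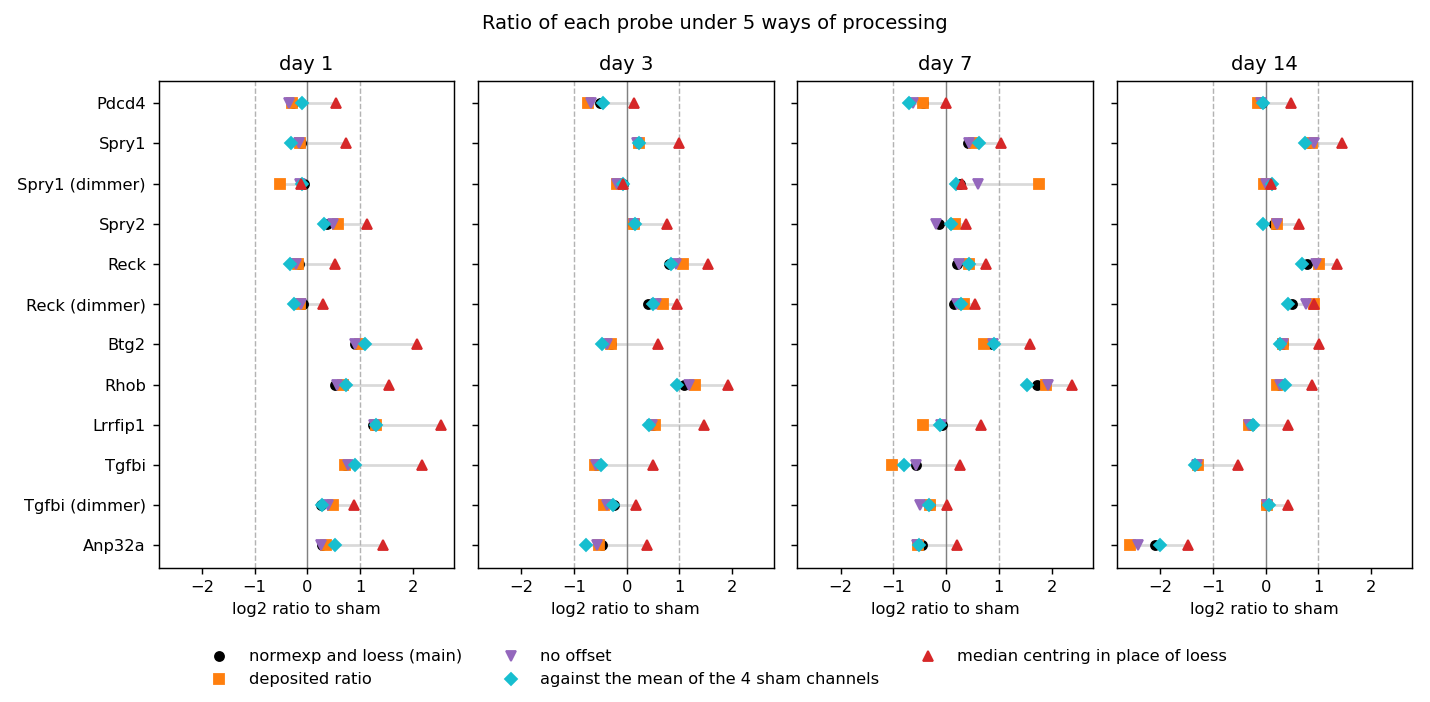
Log2 ratio to sham of each target probe (rows) on each day (panels) under 5 ways of processing, with dashed lines at 2-fold. Median centring (red triangles) lies to the right of the other settings for most probes. Lrrfip1 on day 1, Rhob on day 7 and Anp32a on day 14 lie past 2-fold under all 5.

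Genes with ratios most like each target were sought among 10921 named genes measured on all 4 days, by the Euclidean distance over the 4 log2 ratios, and nothing about shared function follows. Among the nearest to Anp32a were Lgmn (distance 0.44) and Fcgr2a (0.70). Lgmn, the lysosomal protease legumain, was at 0.37, -0.51, -0.69 and -1.74. Nearest to Tgfbi were Snx2, Cts7l2 and Smap2, at 0.28 to 0.33. For Lrrfip1 they were Myo1g, Sfxn3 and Cd300le, at 0.25 to 0.32. Rhob's nearest was Sgk1, a kinase induced by stress and serum, at a distance of 0.30 with 0.67, 0.83, 1.74 and 0.29, followed by Adap2 (0.40) and Angpt2 (0.62). Btg2 was nearest to Slc11a1, Slfn2 and Cklf, at 0.14 to 0.18. For the other targets they were Rpsa, Cdkn2aip and Ppp2cb for Pdcd4, Nat8b, Rbl2 and Lrrc38 for Spry1, Mtrex, Zfp472 and Dgkz for Spry2, and Wnt4, Cc2d2a and Cenpj for Reck, all within 0.19.

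Of 27 other published targets of miR-21 that were measured, 2 were higher and 1 lower on at least 1 day, against 6.31% and 6.15% of all genes. By the deposited ratios 8 and 5 were, against 34.3% and 18.2% of all genes, and with median centring 14 and 1 were, against 30.7% and 2.22%. Daxx, a nuclear adaptor of cell death signalling, was at 1.75 on day 7 (1.36 by its dimmer probe). Marcks, a substrate of protein kinase C, was at 1.14 on day 7, with its other 2 probes at 1.04 and 2.41. Tpm1, a tropomyosin of the thin filament, was at -3.40 on day 3 by its brightest probe, while 1 of its 4 probes lay above 0 that day, at 0.89. That was also the day on which the summed myofibre markers were lowest, and their part in the Tpm1 values was not tested. Timp3, an inhibitor of metalloproteinases, was at -0.16, -0.098, 0.30 and 0.17, whose first values were 0.068 and 0.18 with median centring. Smad7, an inhibitor of transforming growth factor beta signalling, was measured on days 1 and 14 only, at least 1.24-fold higher on day 1, when its sham channel was not well above background, and at -0.025 on day 14 (0.12 with median centring).

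Upstream of the targets stand the host gene of miR-21 and the factors known to induce it. Vmp1, whose gene ends just before the miR-21 hairpin, was at 0.50, -0.096 (0.88 with median centring), 0.66 and 0.10 by its brighter probe and at 0.040, -0.88, -0.35 and -0.46 by the other, so its probes disagreed in sign on days 7 and 14 and its direction is not settled. Of 15 measured genes of this list, 3 were higher and 2 lower on at least 1 day, and with median centring 12 were higher and 0 lower, where 30.7% of all genes were higher. Egr1, a transcription factor of the early response, was at 0.48, 1.87, 1.28 and 1.06, and the AP-1 members Jun and Jund were at 1.30 each on day 7. For Jund that was its brightest probe, and its other probes were at 0.405 and 0.434 that day. Fosl1 and Junb, also of AP-1, were at -1.15 and -1.11 on day 14 (-0.71 and -0.52 with median centring). Of 9 measured genes of microRNA processing and silencing, 0 were higher and 0 lower, while 2 and 1 were by the deposited values, and 4 and 0 with median centring. For both lists, the shares of all genes were 6.31% higher and 6.15% lower by loess. By the deposited values they were 34.3% and 18.2%, and with median centring 30.7% and 2.22%.

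**Figure D5:**
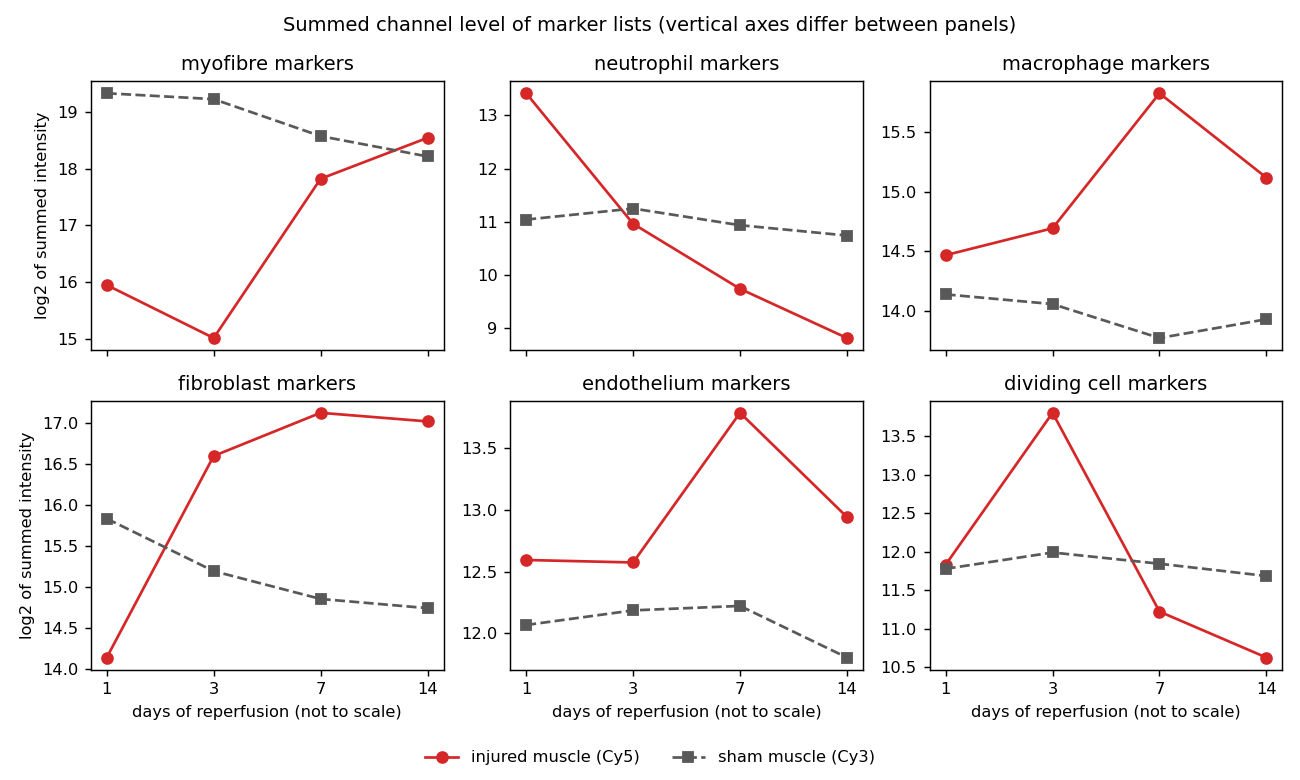
Log2 of the summed normalized intensity of each marker list (vertical axes differ between panels) in injured muscle (circles) and sham muscle (squares) by day of reperfusion, 1 sample per point. The injured line starts at 13.41 and ends at 8.81 for neutrophil markers, peaks at 13.81 on day 3 for dividing cell markers, and lies above sham from day 3 on for fibroblast markers.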

How the data were processed

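Gene expression was measured on 4 arrays, 1 per day. The deposited intensity of each spot is its mean brightness with the median of its local background, not normalized, per the file headers. The deposited log10 ratio of each spot is red over green after background subtraction, detrending and dye normalization, with a p-value and error from the software's model, per the file headers. Feature Extraction is 10.5.1.1 per the file headers and 9.5.3 per the submitters' processing notes. The deposited table of log2 ratios equalled that ratio times log2(10) within 0.005 over 40972 probes (r = 1, column medians 0), which settles that it is injured over sham, on a log2 scale and centred on 0.

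Ratios were computed with R 4.3.3 and limma 3.58.1: normexp with an offset of 50, then loess within arrays, with control and outlier spots at weight 0. Channel levels came from Aquantile normalization. Probes entered a day if either channel was well above background. The brightest probe stood for a list gene. The mean over arrays was tested with lmFit and eBayes at an adjusted p of 0.05. Steps were tested on simulated data. Names came from RefSeq GRCr8 for probes matched by accession (11150), current symbol (1603), older symbol (456), predicted name (6494) or description (208), and 21101 kept the name in the file.

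All members were named, with every probe. Of each gene list, the 3 highest and 3 lowest genes at least 2-fold from sham were named, as were Vmp1, Timp3, Smad7 and the 3 genes nearest each member. Some genes this rule names, and 1 list, are not reported here. The members and lists were chosen with earlier results of these data known. Proteins and target sites were not analysed here.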

Additional observations from a re-analysis of the deposited data

How the results depend on the processing

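Of 13 counts of member probes, those of a sharper or laxer filter on dim probes, of no offset and of brightest probes only stayed within 1.5 times. With median centring, 6 probes were higher on day 1, 3 on day 3, 3 on day 7 and 3 on day 14, 1 was lower on day 14, the ratio of 5 differed 2-fold between days 1 and 3, and 6 passed limma's test as higher, as did 38.5% of all 23648 probes. Against the mean of the 4 sham channels, 2 were higher on day 1 and 0 on day 3, and 4 differed between days 1 and 3. By the deposited ratios, 2 were higher on day 3, 2 on day 7 and 1 on day 14, 1 was lower on day 7, and 2 differed between days 3 and 7. The cause was not tested. Leaving out any 1 of the 4 arrays gave 0 to 0 member probes passing limma's test in each direction. Of all probes, 0 passed without day 1, 3 or 7. Without day 14, 0.0372% passed as lower and 0 as higher. With so few probes passing at all, this count says little of the members. Tgfbi on day 14 turned from -1.29 to 0.015 with its other probe. Signs were opposite in 2 of 48 values by the deposited ratios, 2 of 48 against the mean sham and 0 of 48 without the offset.

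Counts over all probes moved as well. On days 1, 3, 7 and 14, 1273, 1100, 338 and 434 were lower and 311, 655, 844 and 820 higher, so that 19.6%, 37.3%, 71.4% and 65.4% of calls were higher. With median centring, 482, 438, 89 and 111 were lower and 5653, 4627, 3022 and 3139 higher (92.1%, 91.4%, 97.1% and 96.6% of calls), which makes the higher ones 21.2%, 16.4%, 11.2% and 11.4% of all probes. By the deposited ratios, 2275, 2153, 2229 and 1869 were lower and 3185, 4292, 4698 and 4608 higher (58.3%, 66.6%, 67.8% and 71.1%). Without the offset, 1912, 1678, 742 and 990 were lower and 950, 1670, 2071 and 1866 higher (33.2%, 49.9%, 73.6% and 65.3%). Against the mean sham, 1214, 1073, 840 and 563 were lower and 617, 901, 971 and 948 higher (33.7%, 45.6%, 53.6% and 62.7%).

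No pairing of samples across days was possible because each day has 1 array and the days share only the replicate number 1. The pairing of injured and sham muscle on an array is already in every ratio. Dimness limits the Spry1 probe whose sham channel was not well above background on 3 of 4 days.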
